A study of Saccharomyces cerevisiae with 25 samples.

Results

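Budding yeast (Saccharomyces cerevisiae) lacking CCR4 was compared with yeast lacking CDC36, the gene that encodes Not2, after both cultures had used up their glucose. The comparison took the 2 arrays labelled ccr4 and the 2 labelled not2, all collected 30 min after glucose depletion, 4 of the 25 arrays of the study. No wild-type array entered the difference. The other arrays of the study cover a wild type and further strains lacking single subunits of the Ccr4-Not complex, in exponential phase in glucose-rich medium or after depletion. The same 2 strains in exponential phase (2 arrays each) and caf1 against not4 after depletion (1 and 2 arrays) served as comparisons on separate arrays. Each strain is described only as a null strain, and the sources used here do not give its background, mating type or disruption marker. Each array holds 1 independently prepared culture. The p-values rest on a spread between cultures that all groups of the study share, not on that of these 2 strains alone.

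The Ccr4-Not complex removes the poly(A) tails of mRNAs, the step that starts their decay, and it also acts on transcription and on translation. Ccr4 is its main deadenylase and is held in the complex by Caf1 (gene POP2), while Not2, together with Not5 and Not3, forms a module on another part of the Not1 scaffold. When glucose runs out, yeast stops making ribosomes, starts to use ethanol and stored carbon, and induces stress genes, so a strain that lacks either module can be read on each of these programmes.

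The labels were borne out by the deleted genes. CCR4 (YAL021C) had log2 values of 3.82 and 3.56 in ccr4 arrays, against 6.75 and 8.31 in not2 arrays and 8.20 and 8.25 in wild-type arrays after depletion. CDC36 (YDL165W) had 8.51 and 8.51 in ccr4 arrays, against 3.81 and 3.24 in not2 arrays and 8.17 and 8.42 in wild type. The ccr4 minus not2 difference was -3.85 ± 0.45 for CCR4 (log2, SE, adjusted p = 1.87e-06) and 4.99 ± 0.32 for CDC36 (adjusted p = 9.73e-10). The other 7 subunit genes differed far less. POP2 (0.25), MOT2, which encodes Not4 (-0.38), NOT3 (0.81), NOT5 (0.09) and CAF130 (-0.10) did not pass the test. CDC39, which encodes Not1, was called lower (-1.34 ± 0.49, adjusted p = 0.0314) and CAF40 higher (0.82 ± 0.33, adjusted p = 0.0493), but CDC39 lost its call without ccr4 array 1 or 2 or not2 array 2, and CAF40 without ccr4 array 1 or 2 or not2 array 1. The 8 further probe sets of CDC39 were not called.

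The 2 not2 depletion arrays stood further apart than most replicates. The standard deviation over genes of the difference between replicates was 0.256 in ccr4 and 0.80 in not2 after depletion, and 0.22 to 0.83 over all groups of 2 arrays. With limma fitted on all arrays and Benjamini-Hochberg adjustment at 0.05, 2518 of 5656 genes were called (44.5%), 1365 higher (24.1%) and 1153 lower (20.4%) in ccr4 than in not2. The median difference of all genes was 0.05, and 269 genes were higher and 276 lower by at least 2 log2 units. With the spread of the compared groups alone, 1689 genes were called. Leaving out not2 array 1 or 2 gave 2644 and 2134 called genes, and leaving out ccr4 array 1 or 2 gave 1854 and 1682. Without ccr4 array 2, 754 genes were called lower. Shares of a gene list are read below against these background shares. Where no other source is named, array values are log2 as deposited, differences are ccr4 minus not2 in log2 with the SE of the fit, and 2 arrays stand behind each strain.

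Genes of mating stood at the top of the list. Of the 12 highest called genes, leaving out the deleted ones, 8 belong to the a-specific or the mating fusion list. The a-specific genes, which haploid cells of mating type a express, were higher in ccr4 in 6 of 7, with a median difference of 4.29 (3.78 without not2 array 1). MFA1, a precursor gene of the a-factor pheromone, had 12.94 and 12.98 in ccr4, against 8.08 and 8.22 in not2 and 12.56 and 13.15 in wild type. BAR1, the protease that degrades alpha-factor, had 10.34 and 10.58 in ccr4, against 5.09 and 5.78 in not2 and 9.25 and 9.06 in wild type. STE2, the alpha-factor receptor, had 8.66 and 8.66 in ccr4, against 5.10 and 5.22 in not2 and 8.37 and 8.87 in wild type. In these genes wild type lies close to ccr4, so the not2 arrays are the low ones. The differences were 4.81 ± 0.28 for MFA1 (adjusted p = 4.32e-10), 5.03 ± 0.32 for BAR1 (adjusted p = 9.73e-10) and 3.50 ± 0.28 for STE2 (adjusted p = 2.11e-08).

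The other members of the a-specific list were AGA2, the adhesive subunit of a-agglutinin (4.49 ± 0.35), MFA2, the second a-factor gene (4.29 ± 0.27), ASG7, which acts on the G protein beta subunit (3.31 ± 0.34), and STE6, the a-factor exporter. STE6 was the exception, with 5.22 and 4.85 in ccr4 and 4.90 and 5.28 in not2, both below the 7.36 and 7.03 of wild type (difference -0.06, adjusted p = 0.91). The 5 alpha-specific genes did not show the opposite picture. MF(ALPHA)2, an alpha-factor gene, had 5.59 and 5.70 in ccr4, against 3.23 and 2.93 in not2 and 3.36 and 3.60 in wild type, and was called higher (2.56 ± 0.27, adjusted p = 5.04e-07). SAG1, which encodes alpha-agglutinin, was called higher (1.65 ± 0.46, adjusted p = 0.006), a call lost without not2 array 1. MF(ALPHA)1 (0.12), AFB1 (-0.05) and STE3, the a-factor receptor (-0.09), did not pass. The median of these 5 genes, 0.12, became -0.01 under quantile normalization and 0.76 without not2 array 2.

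**Figure D1:**
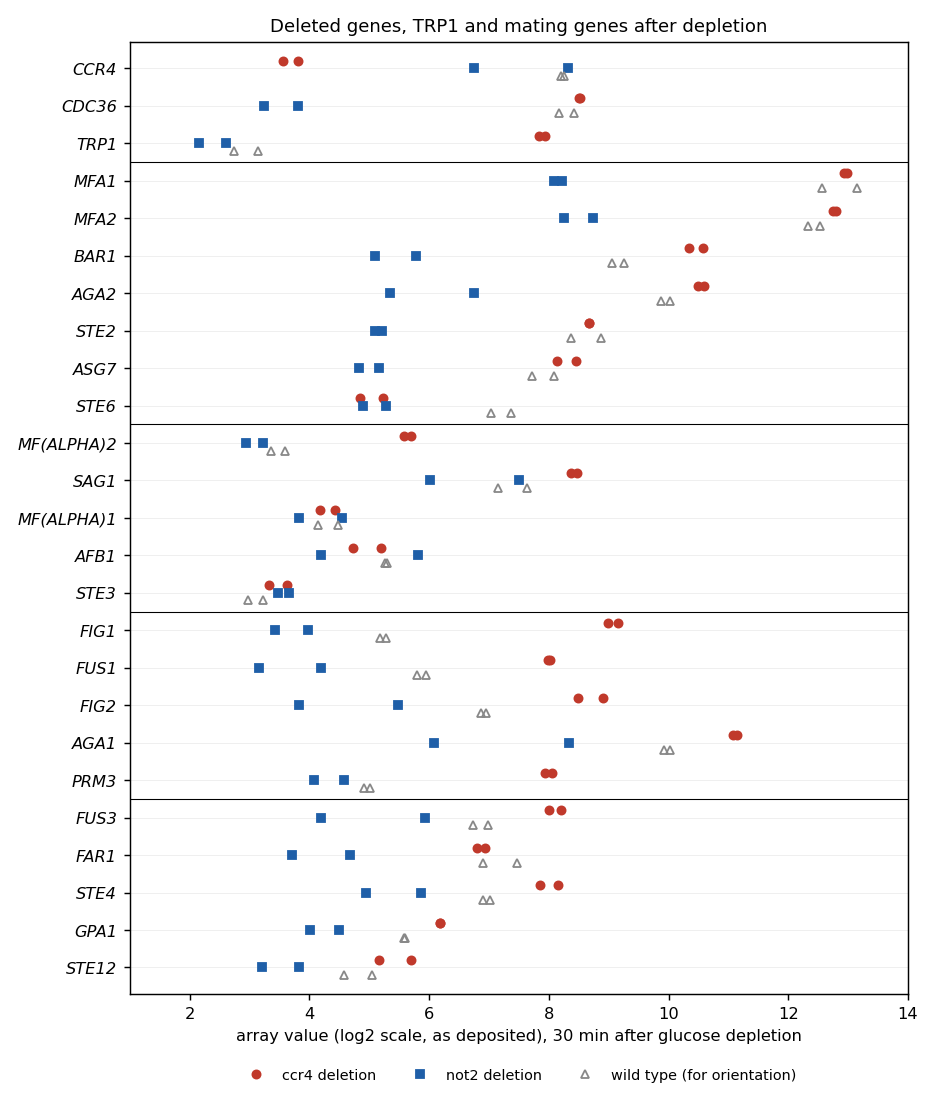
Array values (log2, as deposited, x axis) of the deleted genes, TRP1, the a-specific, alpha-specific, mating fusion and pheromone signalling genes named in the text (y axis, in blocks from top to bottom), 30 min after glucose depletion. Each point is 1 array: filled circles are ccr4, squares not2 and open triangles wild type. The a-specific genes other than STE6 lie between 8.14 and 12.98 in ccr4 and between 4.83 and 8.74 in not2, with wild type near ccr4.

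Genes of cell fusion and agglutination, which pheromone induces in cells of either mating type, were higher in ccr4 in 19 of 23 and lower in 1, with a median of 2.48. FIG1, a membrane protein needed for calcium uptake during mating, had 9.0 and 9.15 in ccr4, against 3.98 and 3.43 in not2 and 5.27 and 5.19 in wild type. FUS1, a membrane protein of the fusion site, had 7.99 and 8.02 in ccr4, against 3.15 and 4.19 in not2 and 5.95 and 5.80 in wild type. Here wild type lies between the strains, unlike in the a-specific genes above. FIG1 was higher by 5.37 ± 0.32 (adjusted p = 5.28e-10) and FUS1 by 4.33 ± 0.33 (adjusted p = 9.87e-09). FIG2, a mating adhesin (4.05 ± 0.51), AGA1, the anchor subunit of a-agglutinin (3.90 ± 0.57), and PRM3, which acts in nuclear fusion (3.66 ± 0.27), were also higher. AGA1 shows the spread of the not2 arrays, with 11.07 and 11.14 in ccr4 against 6.08 and 8.33 in not2. The lower member, PRM8 (-1.68), was not called without not2 array 1. It falls outside the naming rule, as do the other single members named below because they went against the rest of their list, and these were chosen after their values were seen.

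The signalling chain upstream of these genes was less uniform. Of 22 pheromone signalling genes, 10 were higher and STE11 (-1.54), a kinase of the cascade, was lower, with a median of 0.66. FAR1, which arrests the cell cycle in response to pheromone, had 6.80 and 6.94 in ccr4, against 3.71 and 4.68 in not2 and 7.46 and 6.90 in wild type (2.68 ± 0.39, adjusted p = 1.74e-05). STE4, the G protein beta subunit, was higher by 2.60 ± 0.31 and GPA1, the alpha subunit, by 1.93 ± 0.34. The transcription factor STE12, which drives pheromone-induced genes, had 5.71 and 5.16 in ccr4, against 3.82 and 3.20 in not2 (1.92 ± 0.35, adjusted p = 0.000165). These genes were named for the size of their difference, so the absence of overlap between the strains in them is no further evidence. FUS3, the terminal kinase, was higher by 3.04 ± 0.43 on its brightest probe set, while 2 further sets gave 1.34 and 0.21, the second not called. Among 13 haploid-specific genes 10 were higher, with a median of 1.92, and among them HO, the mating-type switching endonuclease, by 2.89 ± 0.30. RME1, a repressor of meiosis, was the lower one (-1.02 ± 0.34), a call lost without ccr4 array 2 or without either not2 array.

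Marker genes of strain construction differed as well, and their part in the results was not tested. TRP1, a tryptophan gene often used as a disruption marker, was the highest called gene, with 7.83 and 7.94 in ccr4, against 2.61 and 2.15 in not2 and 2.73 and 3.14 in wild type (5.50 ± 0.41, adjusted p = 8.6e-09). HIS3 was higher by 2.13 ± 0.27 and MET17 by 1.36 ± 0.30, and URA3 was lower (-0.93 ± 0.23). CAN1 (-1.35 ± 0.32) and ADE2 (-1.09 ± 0.31) lost their calls without not2 array 2, and ADE2 also without ccr4 array 2. LEU2 was higher on its brightest probe set (2.60 ± 0.26) but not on its 2 others (-0.57 and -0.54). LYS2 (0.16) did not pass. TRP1 is therefore low in not2 and in wild type alike, while HIS3, at 7.62 and 7.70 in ccr4, against 5.18 and 5.87 in not2 and 7.46 and 7.22 in wild type, is low in not2 among these 3 strains.

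**Figure D2:**
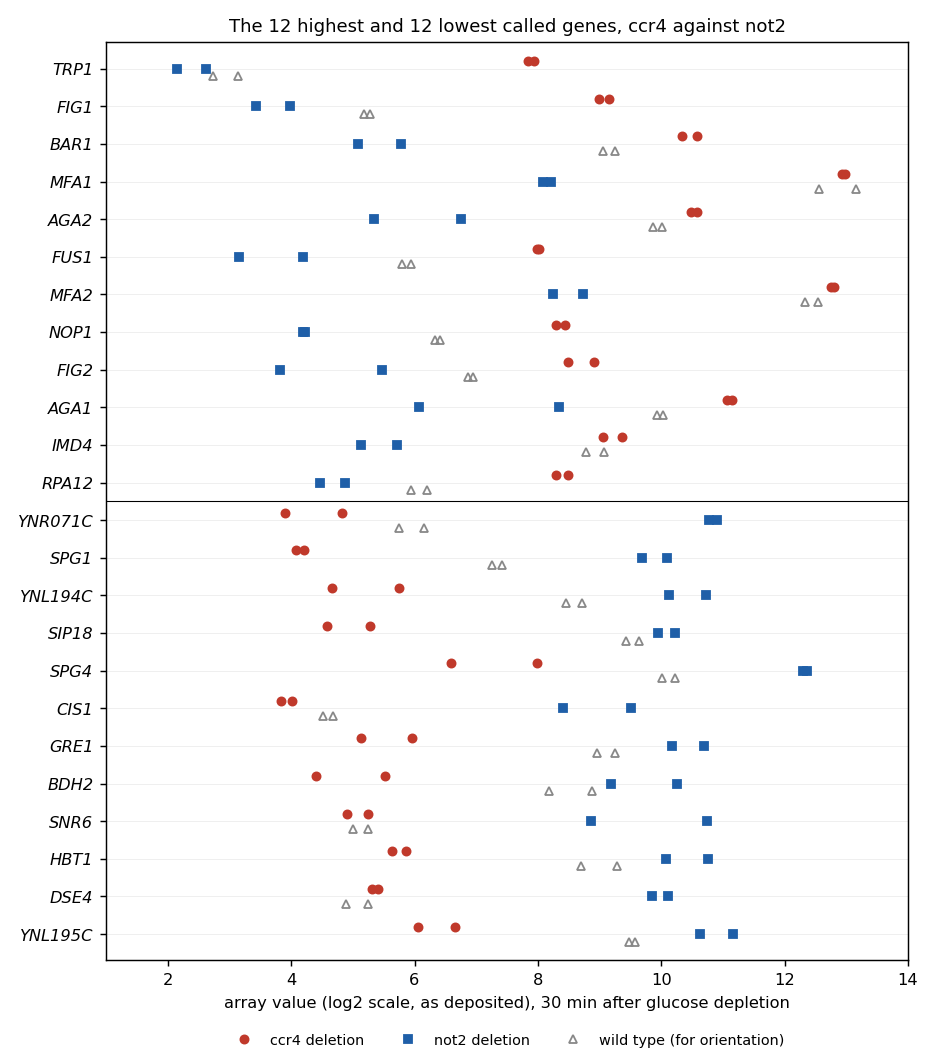
Array values (log2, as deposited, x axis) of the 12 highest (upper block) and 12 lowest (lower block) called genes of ccr4 against not2 after glucose depletion, leaving out CCR4 and CDC36, in order of their difference. Each point is 1 array: filled circles are ccr4, squares not2 and open triangles wild type. The genes were chosen by their difference, so the absence of overlap between ccr4 and not2 arrays follows from the choice. Differences run from 5.50 for TRP1 to -6.47 for YNR071C.

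The machinery of ribosome production was higher in ccr4 almost throughout. Of 107 ribosome biogenesis genes, 93 were called higher and 1, the kinase gene RIO1 (-1.19), lower. RIO1 was not called on leaving out any 1 of the 4 arrays. The median difference was 1.82, against 0.05 for all genes. The median level of the list was 6.37 and 6.38 in ccr4 arrays, against 4.80 and 4.32 in not2 arrays and 4.82 and 4.85 in wild-type arrays, so that wild type lay with not2. NOP1, the methyltransferase known as fibrillarin in other species, had 8.29 and 8.45 in ccr4, against 4.19 and 4.23 in not2 and 6.33 and 6.41 in wild type (4.16 ± 0.30, adjusted p = 5.28e-09). NOP2, an rRNA methyltransferase, had 8.10 and 8.23 in ccr4, against 4.82 and 4.97 in not2 and 6.13 and 5.77 in wild type (3.27 ± 0.38, adjusted p = 1.75e-06). In both genes the not2 arrays are lowest and the ccr4 arrays highest. UTP15, of the small-subunit processome (3.41 ± 0.50), GAR1, of the pseudouridylation particles (3.19 ± 0.42), and NIP7, of large-subunit assembly (3.13 ± 0.46), were higher too. The arrays were made from whole cultures, so fewer cells in a given state and less transcript per cell cannot be told apart, here and below.

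The polymerases that transcribe rRNA and tRNA showed the same direction in most members. Of 37 genes of RNA polymerase I and III and their factors, 20 were higher and 2 lower, with a median of 1.07. RPA12, a polymerase I subunit, had 8.29 and 8.48 in ccr4, against 4.88 and 4.46 in not2 and 6.21 and 5.94 in wild type (3.72 ± 0.38, adjusted p = 4.61e-07). The polymerase I subunits RPA14 (3.52 ± 0.40) and RPA49 (3.17 ± 0.41) and the shared subunits RPC10 (2.82 ± 0.45) and RPC19 (2.75 ± 0.38) followed. The lower members were RRN3, a polymerase I initiation factor (-0.98), and TFC3, the largest subunit of TFIIIC (-1.62). Without ccr4 array 2 or without not2 array 1, 1 member was called lower.

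Translation factors and ribosomal proteins were higher in ccr4 as well. Among 35 translation factor genes 26 were higher, with a median of 1.59, and 1 was lower. RPG1 and PRT1, subunits of initiation factor eIF3, were higher by 2.73 ± 0.33 and 2.46 ± 0.26, and TIF5, which encodes eIF5, had 6.42 and 6.64 in ccr4, against 3.54 and 4.08 in not2 and 5.47 and 5.62 in wild type (2.72 ± 0.32, adjusted p = 1.85e-06). The lower one was HEF3, a second copy of elongation factor eEF3, with 4.56 and 4.21 in ccr4, against 7.06 and 8.34 in not2 (-3.31 ± 0.47, adjusted p = 1.43e-05). Of 82 cytosolic ribosomal protein genes measured, 62 were higher and RPS7B (-0.88) was lower. RPS7B was not called without ccr4 array 2 or without not2 array 1, and 2 members were called lower without ccr4 array 1. The median of the list was 1.26, and 1.68 without not2 array 1 and 0.863 without not2 array 2, where 41 were called higher. The list median level was 9.75 and 9.82 in ccr4 arrays, against 8.81 and 8.39 in not2 arrays and 9.38 and 9.23 in wild type. RPL13A had 9.10 and 8.73 in ccr4, against 5.59 and 5.28 in not2 and 7.86 and 7.63 in wild type (3.48 ± 0.29, adjusted p = 2.82e-08). RPP1B, of the ribosomal stalk, was higher by 2.53 ± 0.26. Many ribosomal protein genes come in near-identical pairs that a probe set may not separate, so values of single members such as RPL13A and RPL9A (3.23 ± 0.45) are uncertain.

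**Figure D3:**
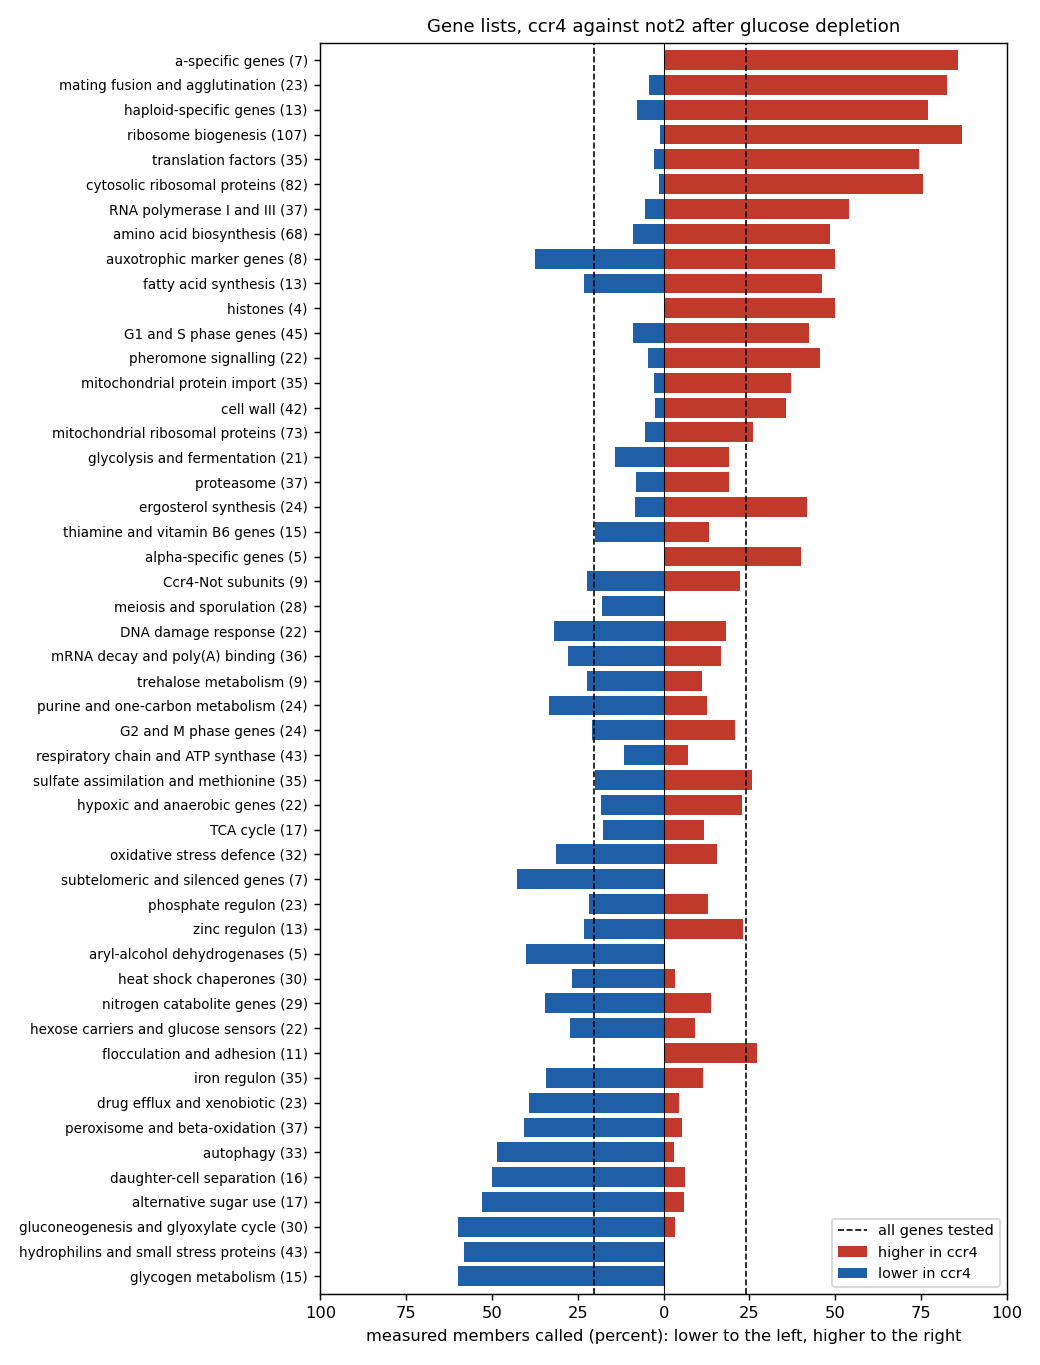
Share of measured members called higher (right) or lower (left) in ccr4 than in not2 after glucose depletion for the 50 gene lists, with the number of measured members in brackets and the lists in order of their median difference. Dashed lines mark the share of all 5656 genes called higher (24.1%) and lower (20.4%). The ribosome biogenesis, a-specific and mating fusion lists pass the right line by the widest margins. The glycogen, gluconeogenesis and hydrophilin lists do so on the left.

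Amino acid biosynthesis followed in part. Of 68 genes, 33 were higher and 6 lower, with a median of 0.79. PRO1, the first enzyme of proline synthesis, had 7.52 and 7.39 in ccr4, against 4.63 and 2.97 in not2 and 6.33 and 6.72 in wild type (3.65 ± 0.45, adjusted p = 2.91e-06). THR1, homoserine kinase (3.26 ± 0.45), and ARO7, chorismate mutase (3.0 ± 0.37), were higher, whereas GDH3, a glutamate dehydrogenase used on non-fermentable carbon, was lower (-3.0 ± 0.48). In GDH3 the ccr4 arrays, at 6.12 and 6.25, lay below both not2 (8.14 and 10.22) and wild type (9.19 and 8.54). IMD4, an enzyme of guanine nucleotide synthesis, was higher by 3.79 ± 0.37 on the probe set used, but a second set gave 0.51 and was not called. APT1, which salvages adenine (2.70 ± 0.30), and GUA1, GMP synthase (2.51 ± 0.31), were the other higher members of the 24 purine and one-carbon genes. Of those 24, 8 were lower (5 without ccr4 array 1, 4 without ccr4 array 2 and 5 without not2 array 2), GCV1 of glycine cleavage most of all (-2.83 ± 0.46). Without not2 array 2, 7 of them were called higher.

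Genes that depleted cells use to protect themselves were lower in ccr4. Of 43 genes of hydrophilins and small stress proteins, 25 were lower and 0 higher (1 without not2 array 1 or 2), with a median of -1.39. SPG1, needed for survival in stationary phase at high temperature, had 4.21 and 4.07 in ccr4, against 10.10 and 9.68 in not2 and 7.41 and 7.26 in wild type. SIP18, a hydrophilin, had 5.28 and 4.58 in ccr4, against 10.22 and 9.95 in not2 and 9.64 and 9.43 in wild type. In SIP18 wild type lies near not2 and in SPG1 it lies between the strains. The differences were -5.75 ± 0.29 for SPG1 (adjusted p = 7.99e-11) and -5.15 ± 0.31 for SIP18 (adjusted p = 4.81e-10). SPG4, a further stationary-phase gene (-5.05 ± 0.58), GRE1, the paralogue of SIP18 (-4.88 ± 0.34), and ALD3, a stress-induced aldehyde dehydrogenase (-3.29 ± 0.52), were also lower. The list median level was 9.17 and 8.68 in ccr4, against 10.85 and 10.12 in not2 and 9.93 and 10.01 in wild type.

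Storage carbohydrate genes were lower chiefly on the glycogen side. Of 15 glycogen genes, 9 were lower and 0 higher (1 without not2 array 2), with a median of -1.55. GSY2, the main glycogen synthase of resting cells, had 8.76 and 8.81 in ccr4, against 10.90 and 10.71 in not2 and 10.63 and 10.47 in wild type (-2.02 ± 0.41, adjusted p = 0.000541). GLG1, which primes glycogen, had 4.26 and 4.02 in ccr4, against 7.21 and 7.04 in not2 and 6.49 and 6.15 in wild type (-2.98 ± 0.37, adjusted p = 3.93e-06). The phosphatase regulators PIG2 (-2.57 ± 0.36) and GIP2 (-1.80 ± 0.38) were lower too. Of 9 trehalose genes only the trehalases changed, NTH2 (-2.44 ± 0.32) and ATH1 (-1.93 ± 0.35) being lower, and NTH1 higher (0.83 ± 0.33), a call lost without either ccr4 array or without not2 array 2.

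The enzymes for growth on carbon other than glucose were lower in ccr4 too. Of 30 genes of gluconeogenesis and the glyoxylate cycle, 18 were lower and MDH2, a cytosolic malate dehydrogenase, was higher (1.69), with a median of -1.29. Without not2 array 1 or 2, 2 were called higher. PCK1, which commits carbon to gluconeogenesis, had 6.88 and 6.65 in ccr4, against 10.46 and 11.42 in not2 and 9.33 and 9.18 in wild type (-4.17 ± 0.53, adjusted p = 4.19e-06). JEN1, the lactate and pyruvate carrier, had 6.34 and 5.94 in ccr4, against 8.71 and 9.73 in not2 and 8.58 and 8.28 in wild type (-3.08 ± 0.47, adjusted p = 3.44e-05). The ccr4 arrays are thus the low ones, and wild type stands near not2. REG2, a phosphatase regulator (-3.61 ± 0.37), CAT2, carnitine acetyltransferase (-3.36 ± 0.36), and IDP2, a cytosolic isocitrate dehydrogenase (-3.12 ± 0.43), were lower. Of 37 genes of peroxisomes and fatty acid beta-oxidation, 15 were lower and ANT1 (1.08) and PEX4 (0.89) were higher, the number of higher genes running from 0 to 4 with 1 array left out. POT1, the thiolase (-3.18 ± 0.28), ECI1, an isomerase (-3.06 ± 0.29), FOX2, which carries out the middle steps (-3.05 ± 0.33), and PXA1, the fatty acid importer (-2.72 ± 0.31), led the lower ones. ECI1 and PXA1 were close to wild type in ccr4, with PXA1 at 2.94 and 2.81 in ccr4, against 5.92 and 5.26 in not2 and 3.21 and 3.19 in wild type. Over the peroxisome list, the median of ccr4 minus wild type was -0.05 and that of wild type minus not2 was -0.72. In this list, then, not2 was the strain further from wild type.

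Sugar uptake and phosphorylation changed in single genes. HXT5, the hexose carrier of slow-growing cells, had 7.28 and 7.03 in ccr4, against 11.21 and 11.83 in not2 and 9.23 and 8.80 in wild type (-4.37 ± 0.31, adjusted p = 3.67e-09). HXK2, the hexokinase of glucose-grown cells, had 9.19 and 9.24 in ccr4, against 6.57 and 5.81 in not2 and 8.32 and 8.77 in wild type (3.03 ± 0.30, adjusted p = 3.37e-07). HXT4 was higher (1.55 ± 0.40), and 6 of the 22 hexose carriers and sensors were lower (3 without ccr4 array 1 or 2), among them the glucose sensor SNF3 (-1.59 ± 0.26). The list for other sugars had 9 of 17 lower, 4 without ccr4 array 2, and 1 higher, GAL7 (0.84), which was not called without either ccr4 array. Of 21 glycolytic and fermentation genes, 4 were higher and 3 lower, shares no greater than the background. ENO2, an enolase, was the clearest besides HXK2 (1.91 ± 0.23, adjusted p = 2.32e-06). Without not2 array 2 the counts were 7 and 0.

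Few respiration genes were called. Of 43 respiratory chain and ATP synthase genes, 3 were higher and 5 lower, below the background on both sides. The higher count was 8 without not2 array 1 and 1 without either ccr4 array, and the lower count was 3 without ccr4 array 2. With each array's trend on coding length removed, 10 of the 43 were lower, which is near the share of all genes. In that setting 1127 genes were lower in total, against 1153 in the values as deposited. NDE2, an external NADH dehydrogenase, was an outlier of the list, with 5.19 and 5.14 in ccr4, against 8.45 and 9.0 in not2 and 8.23 and 7.87 in wild type (-3.56 ± 0.38, adjusted p = 5.77e-07). NDI1, the internal one, was lower by less (-1.73 ± 0.39). Of 17 TCA cycle genes, 2 were higher and 3 lower, and apart from IDH2 (0.82 ± 0.20) the called ones, FUM1, CIT1, KGD1 and MDH1, lost their calls on leaving out 1 array. Mitochondrial ribosomal proteins were higher in 19 of 73, which is near the background, and in 32 without not2 array 1. Of 35 genes of mitochondrial protein import, 13 were higher and SAM37 (-1.48) lower (2 genes without not2 array 1). TOM20, an import receptor, had 11.04 and 11.29 in ccr4, against 8.30 and 7.94 in not2 and 9.20 and 9.57 in wild type (3.05 ± 0.28, adjusted p = 8.37e-08).

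**Figure D4:**
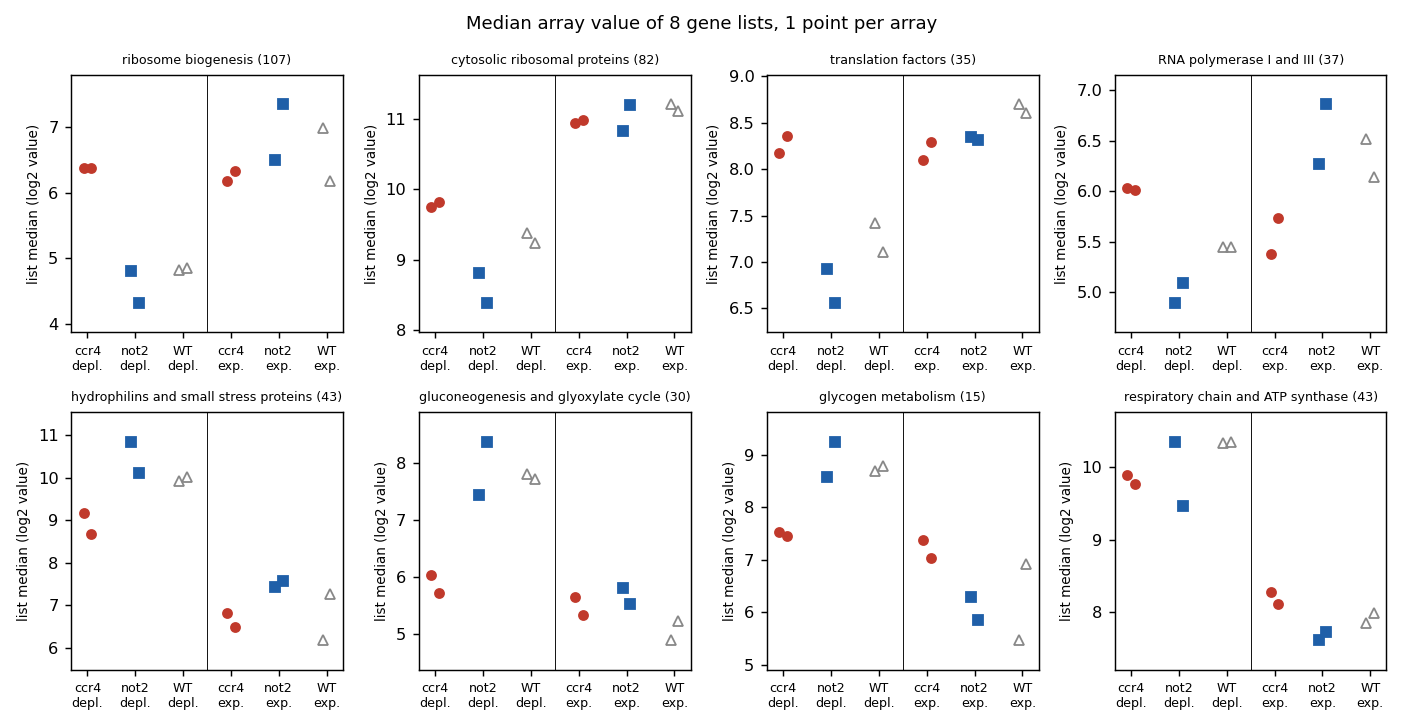
Median array value (log2, y axis) of 8 gene lists in each array of ccr4, not2 and wild type (WT), after glucose depletion (left of the line) and in exponential phase (right), 1 point per array. After depletion the ribosome biogenesis median is 6.37 and 6.38 in ccr4 and 4.80 and 4.32 in not2, and the glycogen median is 7.53 and 7.45 in ccr4 and 8.58 and 9.25 in not2. The respiratory chain medians of ccr4 lie between those of the 2 not2 arrays.

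Autophagy, oxidative stress defence and drug efflux leaned to the lower side. Of 33 autophagy genes, 16 were lower (10 without ccr4 array 1) and ATG18 (1.66) higher (2 genes without not2 array 1), with a median of -0.82. ATG14, which directs the lipid kinase to autophagy, had 3.19 and 3.26 in ccr4, against 6.17 and 5.45 in not2 and 3.35 and 3.43 in wild type (-2.58 ± 0.28, adjusted p = 6.59e-07), so not2 is the strain that stands apart. ATG8, the ubiquitin-like membrane tag, was lower by less, at -1.79 ± 0.28. Of 23 drug efflux genes, 9 were lower and PDR17 (1.65) higher (2 genes without not2 array 2). The ABC transporter PDR5 had 7.14 and 6.13 in ccr4, against 10.37 and 10.40 in not2 and 8.28 and 8.41 in wild type (-3.76 ± 0.33, adjusted p = 5.36e-08). PDR15 (-4.0 ± 0.56), PDR10 (-3.23 ± 0.28) and YOR1 (-3.08 ± 0.33), transporters of the same class, were lower as well. The probe sets of PDR5 and YOR1 disagreed in size. Of 6 further sets of PDR5, 3 were not called (-0.82, -1.03 and -1.36), and of 6 of YOR1, 2 were not called (-0.34 and -0.66). Among 32 oxidative stress genes 10 were lower and 5 higher (2 without ccr4 array 2 and 3 without not2 array 2). GPX1, a glutathione peroxidase (-4.06 ± 0.35), and both catalases, CTT1 (-2.35 ± 0.54) and CTA1 (-2.26 ± 0.42), were lower, and TRR1, thioredoxin reductase, was higher (2.0 ± 0.28). Heat shock chaperones were lower in 8 of 30 (26.7%), which is near the 20.4% of all genes, and in 4 without ccr4 array 2.

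Genes that daughter cells express after division were lower in ccr4 than in not2, with not2 the strain further from wild type after depletion. In exponential phase 7 of 16 were already lower (43.8%, against 24.5% of all genes), with a median of -0.72 against -0.24 for all genes. After depletion their median level was 6.80 and 6.58 in ccr4, against 9.07 and 9.16 in not2 and 5.94 and 5.95 in wild type. Of 16, 8 were lower and MOB2 (1.65) higher, with a median of -0.82. DSE4, a glucanase that separates the daughter from the mother, had 5.41 and 5.31 in ccr4, against 9.85 and 10.12 in not2 and 5.24 and 4.90 in wild type (-4.63 ± 0.39, adjusted p = 4.08e-08). ASH1, the repressor of HO in daughter cells, had 6.86 and 6.71 in ccr4, against 10.25 and 10.34 in not2 and 7.48 and 7.09 in wild type (-3.51 ± 0.30, adjusted p = 4.67e-08). EGT2 (-3.35 ± 0.32), DSE1 (-4.07 ± 0.59) and DSE3 (-3.30 ± 0.38), further daughter-cell genes, had the same pattern. In all 5 the not2 arrays are high and ccr4 lies nearer to wild type than to not2. Of 45 G1 and S phase genes, 19 were higher (12 without ccr4 array 2) and 4 lower (2 without ccr4 array 1, 1 without ccr4 array 2 and 2 without not2 array 2). PCL2, a G1 cyclin of the kinase Pho85 (2.48 ± 0.44), CDC9, DNA ligase (2.04 ± 0.35), and RFA2, of the single-strand binding complex (1.94 ± 0.24), were higher, and the G1 cyclin CLN1 was lower (-1.66 ± 0.31).

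Cell wall genes were higher in 15 of 42, and SLG1, a sensor of wall stress, was lower (-0.93). Without not2 array 1, 6 were called lower, and without ccr4 array 2 none was. GAS3, a wall glucanosyltransferase family member, had 9.09 and 9.21 in ccr4, against 5.81 and 5.43 in not2 and 6.45 and 6.58 in wild type (3.53 ± 0.30, adjusted p = 4.67e-08). UTR2, which links chitin to glucan, was higher by 2.60 ± 0.34. Of 24 ergosterol genes, 10 were higher, with MVD1 of the mevalonate steps (2.11 ± 0.27) and ERG1, squalene epoxidase (1.94 ± 0.30), among them. ERG8 (-1.30) and ERG27 (-0.91) were lower. The number of lower genes was 5 without not2 array 1 and 1 without any 1 of the other 3 arrays. HEM13, an oxygen-regulated haem enzyme, was higher by 2.99 ± 0.34, with 8.12 and 8.34 in ccr4, against 4.53 and 5.95 in not2 and 8.12 and 7.73 in wild type.

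Nutrient regulons outside carbon were mixed. Nitrogen catabolite genes were lower in 10 of 29 (6 without ccr4 array 2 or without not2 array 2), and GDH2, which frees ammonium from glutamate (-3.38 ± 0.37), and PUT1, proline oxidase (-2.97 ± 0.33), led them. PUT1 had 5.81 and 6.11 in ccr4, against 8.56 and 9.31 in not2 and 5.68 and 5.91 in wild type, so again not2 stood apart. Iron regulon genes were lower in 12 of 35 (5 without ccr4 array 2). In exponential phase 12 of 35 were lower as well (34.3%, against 24.5% of all genes there). The mitochondrial iron carrier MRS4 was the clearest after depletion, at -2.21 ± 0.29. PHO84, the high-affinity phosphate carrier, had 6.40 and 6.19 in ccr4, against 7.85 and 9.94 in not2 and 5.75 and 5.99 in wild type (-2.60 ± 0.44, adjusted p = 8.76e-05). The secreted phosphatase PHO3 was higher (2.37 ± 0.26).

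Factors of mRNA decay, the process the complex itself serves, were called in 16 of 36, 6 higher and 10 lower, with a median of -0.01. The higher count was 2 without ccr4 array 2 and 3 without not2 array 2. DCS1, which hydrolyses the cap left after decay, had 7.75 and 7.45 in ccr4, against 9.49 and 9.69 in not2 and 8.76 and 8.51 in wild type (-1.98 ± 0.30, adjusted p = 2.82e-05). Its partner DCS2 (-2.46 ± 0.50) and the decapping enhancer EDC2 (-2.20 ± 0.37) were lower, and PUF6, an RNA-binding repressor, was higher (1.72 ± 0.38). DHH1, a decapping helicase, was called lower (-2.14 ± 0.59), but not without ccr4 array 2 or not2 array 2. The share called in this list, 44.4%, equals that of all genes to within a percentage point.

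Among the largest decreases, SPG1, SIP18, SPG4, GRE1 and DSE4, given above, are list members. Others lay outside these lists, as did most genes measured (4316 on no list, against 1340 on any list). YNR071C, a homologue of aldose epimerases, had 4.82 and 3.90 in ccr4, against 10.77 and 10.90 in not2 and 6.15 and 5.75 in wild type, the greatest difference of all (-6.47 ± 0.46, adjusted p = 3.67e-09). YNL194C, a membrane protein of eisosomes (-5.23 ± 0.54), its neighbour YNL195C (-4.53 ± 0.50) and HBT1, a protein of mating projections (-4.68 ± 0.47), were lower in ccr4 with wild type nearer to not2. CIS1 (YLR346C) had 3.83 and 4.01 in ccr4, against 9.50 and 8.41 in not2 and 4.68 and 4.52 in wild type (-5.03 ± 0.47, adjusted p = 1.26e-07). SNR6, the U6 spliceosomal RNA, had 4.91 and 5.25 in ccr4, against 10.74 and 8.86 in not2 and 5.01 and 5.24 in wild type (-4.72 ± 0.67, adjusted p = 1.44e-05). CIS1 and SNR6 were therefore high in not2 alone of the strains set side by side here. BDH2, an alcohol dehydrogenase family member, was also lower (-4.76 ± 0.55).

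Over all called genes, wild type served only for orientation. Of the 1365 genes higher in ccr4, the wild-type mean after depletion lay between the strains in 1041 (76.3%), and it was nearer to ccr4 in 688 and nearer to not2 in 677. Of the 1153 lower genes, it lay between in 833 (72.2%), nearer to ccr4 in 621 and nearer to not2 in 532. Called genes are those in which the strains lie far apart, which by itself leaves room for wild type between them. No such share was computed over all genes, so the shares between the strains are not read further.

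Whether these differences were there before depletion was asked on the exponential arrays, which are separate from the depletion arrays. There 2016 genes were called (35.6%), 629 higher (11.1%) and 1387 lower (24.5%), with a median of -0.24 over all genes. Of the genes higher in ccr4 after depletion, 290 were also higher in exponential phase, which is 21.2% of the 1365 and 46.1% of the 629. Of the lower ones, 431 were lower in both, 37.4% of the 1153 and 31.1% of the 1387. In opposite directions, 185 were higher after and lower before depletion, and 48 the reverse. Across the 5656 genes, which are not independent, the 2 differences had Pearson's r of 0.32 and Spearman's rho of 0.27. The scale of the exponential comparison depends on normalization. Its all-gene median moved by 0.21 under quantile normalization and by 0.35 under median centring, and its split of higher against lower calls became 846 against 930 and 1116 against 784. Without not2 exponential array 2, 1125 genes were called, 372 higher and 753 lower. The test of the difference between conditions called 1931 genes (34.1%), 1305 higher (23.1%) and 626 lower (11.1%), and 1232 without ccr4 depletion array 2. Its all-gene median of 0.27 moved by -0.25 and -0.42 under the same scalings, and its split became 979 against 877 and 745 against 1024.

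The mating genes differed between the strains in both conditions. All 7 a-specific genes were higher in exponential phase, with a median of 5.47, and BAR1 differed there by 6.73 and MFA1 by 5.97. All 5 alpha-specific genes were higher as well (median 1.72), and so were 18 of 23 fusion genes (median 2.42). The test of the change called a lower difference after depletion in 5 of 7 a-specific and 4 of 5 alpha-specific genes (7 and 5 under median centring). Of the 23 fusion genes it called 7 lower and 1 higher (8 and 0 under median centring), and their median after depletion was 2.48. STE6 changed most, with a difference of 2.97 in exponential phase and -0.06 after depletion (change -3.03, adjusted p = 0.00012). TRP1 differed by 4.97 before and 5.50 after depletion, and CDC36 by 4.20 and 4.99, neither change being called.

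The ribosome genes were higher in ccr4 after depletion but not before. In exponential phase 1 ribosome biogenesis gene, UTP22, was higher and 35 were lower, with a median of -0.53 against -0.24 for all genes. The change between conditions was called higher in 95 of 107, with a median of 2.52 against 0.27 for all genes, and in 80 to 97 under the other scalings. From exponential phase to depletion the median change of these genes was 0.16 in ccr4, against -2.33 in not2 and -1.55 in wild type. NOP1 differed by 0.31 before depletion and NOP2 by -0.65. Cytosolic ribosomal proteins changed by a median of -1.15 in ccr4, against -2.43 in not2 and -2.01 in wild type, with the change called in 48 of 82, and in 25 under median centring. Translation factors changed by a median of -0.20 in ccr4, against -1.78 in not2 and -1.39 in wild type, with the change called in 25 of 35, of which 24 were called higher (12 under median centring). RNA polymerase I and III genes changed by 0.38 in ccr4, against -1.31 in not2 and -0.72 in wild type, with the change called in 21 of 37.

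Carbon genes showed the reverse. Gluconeogenesis and glyoxylate genes changed by a median of 0.41 in ccr4, against 2.16 in not2 and 2.79 in wild type, and the change was called lower in 18 of 30. Glycogen genes changed by 0.47 in ccr4, against 2.80 in not2 and 1.84 in wild type, with 10 of 15 called lower. In exponential phase the gluconeogenesis list had a median of 0.30, with 4 genes higher and 1 lower, and the glycogen list a median of 0.61, with 3 of 15 higher, against -0.24 for all genes. Under quantile normalization 7 glycogen genes were called higher there, and under median centring 8, with a median of 0.96, and median centring also gave 7 higher gluconeogenesis genes. Of 43 hydrophilin and stress genes 12 were lower in ccr4 in exponential phase (27.9%), near the 24.5% of all genes, and 3 higher. Under median centring 7 were lower and 6 higher. From exponential phase to depletion these genes changed by 1.77 in ccr4, against 2.92 in not2 and 3.43 in wild type.

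**Figure D5:**
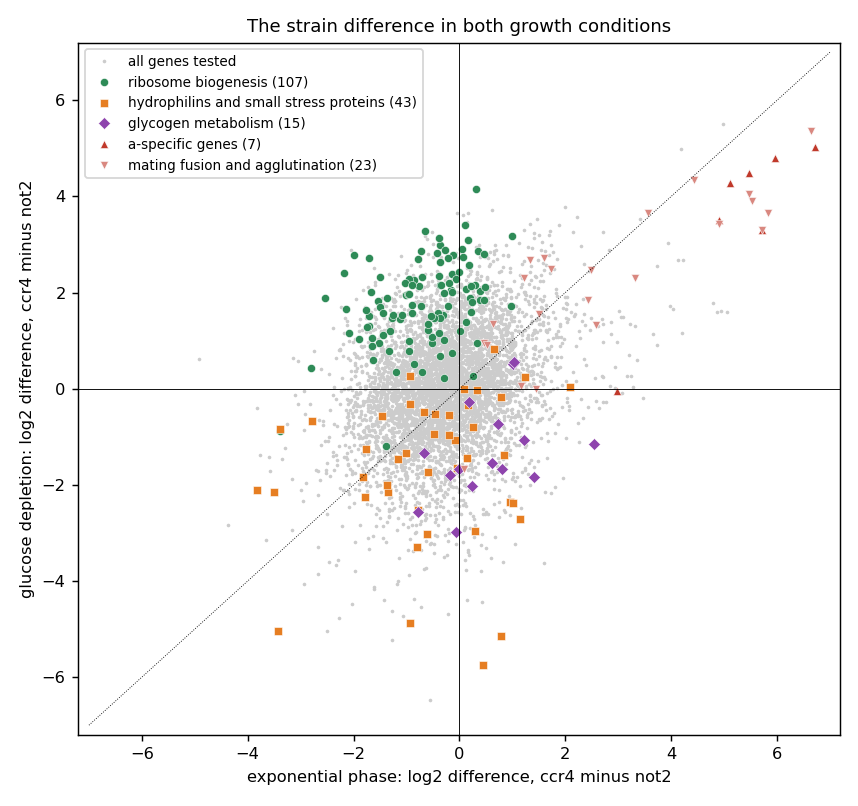
Difference of ccr4 minus not2 (log2) in exponential phase (x axis) and after glucose depletion (y axis), 1 point per gene, for all 5656 genes in grey and 5 gene lists in colour. The dotted line marks equal differences. Mating genes mostly lie high on both axes, ribosome biogenesis genes mostly lie above 0 on the y axis and below 0 on the x axis, and glycogen genes mostly lie below 0 on the y axis.

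Caf1, a deadenylase subunit, and Not4, of the NOT module, gave a comparison on other arrays, with 1 caf1 array that has no replicate. After depletion 620 genes were called in caf1 against not4 (11.0%), 403 higher (7.13%) and 217 lower (3.84%), with a median of 0.13. The differences of the 2 comparisons were only weakly related, with r of 0.20 and rho of 0.16 across genes. Among genes called in both, some had the same direction and some the opposite one. The carbon and stress lists were not lower to the same extent in caf1. Their medians were 0.53 for gluconeogenesis and glyoxylate, -0.42 for glycogen and -0.15 for hydrophilins and stress proteins. In ccr4 against not2 these were -1.29, -1.55 and -1.39, so the gluconeogenesis median had the opposite sign. Of 107 ribosome biogenesis genes 3 were higher in caf1 than in not4 (0 to 4 under other scalings), 0 of 7 a-specific genes were called, and 22 of 82 ribosomal protein genes were lower (median -0.75, and 28 to 31 genes under other scalings). Of 22 hypoxic genes, 7 were lower in caf1 and 1 higher, of 23 drug efflux genes 5 were lower and 2 higher, and of 45 G1 and S phase genes 8 were lower and 1 higher. Of 35 genes of mitochondrial protein import, 8 were higher, and 3 under quantile normalization. The all-gene median of this comparison moved by -0.11 under quantile normalization and -0.14 under median centring, and the split of higher and lower calls became 234 against 263 and 308 against 314. It also rested on the spread borrowed from other groups. With the spread of the compared groups alone 32 genes were called, and without not4 array 1 the number was 1048.

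Gene length moved with the difference. Over 5486 genes with a coding length, Spearman's rho between length and the difference was -0.157, and the median difference was 0.30 for genes up to 500 bases and -0.96 for the 82 genes over 5000 bases. The difference between the replicate arrays of not2 after depletion ran the same way, with medians of 0.35 and -0.59 in these bins, whereas that of ccr4 was -0.09 and 0.06. With each array's trend on length removed, an alternative chosen after seeing the data, 2500 genes were called. Of the lists, 95 ribosome biogenesis, 59 ribosomal protein and 6 a-specific genes were then higher, and 29 hydrophilin and stress and 8 glycogen genes lower.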

How the data were processed

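Per the labels' protocols, acid phenol was used to extract total RNA, which was then biotin-labelled and put on Affymetrix yeast arrays. The deposited table holds log2 values of 9275 probe sets in 25 arrays, running from 1.36 to 13.94 with 0 missing. The sources used here do not give the software, background correction or normalization, and the log base was inferred from the values. Genes were not centred, and every array holds a single sample, so no ratio direction has to be known. The values were used as deposited, with no pseudocount. Their number of arrays limits the precision. Per the labels, the authors discarded 3 problematic arrays.

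Probe sets were named by the platform annotation, and Entrez numbers gave their current symbols in R64. Probe sets with 1 symbol (6504) were used, and those with several (328) or none (2443) were not. Where a gene had several sets (315 genes), its brightest set over all arrays stood for it, which left 5656 genes. Of these, 295 lie on a set whose suffix marks it as less specific, 94 of them ending in _s_at or _x_at, the sets left out as shared in an alternative.

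A model of 14 group means (limma 3.58.1, R 4.3.3) used all arrays, so that groups with a single array take their spread from the rest. Moderation by eBayes included the intensity trend, with 9.03 prior and 11 residual degrees of freedom. Each comparison had its own Benjamini-Hochberg adjustment, and an adjusted p below 0.05 was a call. Scripts were checked on simulated data. Figures were drawn with matplotlib 3.10.9, and tables were made in Python 3.11.15 with numpy 2.4.6 and pandas 2.3.3.

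The genes compared and the 50 gene lists were chosen with earlier results of these data known, so no list is independent evidence. Named genes are the 9 subunit genes, the 12 highest and 12 lowest called genes leaving out CCR4 and CDC36, up to 5 with the greatest difference in each list with at least 2 called, the mating-type and marker genes, and the 6 highest and 6 lowest of the difference between conditions. The rule named 254 genes, 243 of them called, of which the text gives a part.

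The alternatives were no intensity trend, quantile normalization, median centring, dim genes left out, the mean over probe sets, shared sets left out, the spread of fewer groups, a replicate block, leaving out each array and, chosen after seeing the data, a crossed block and the removal of each array's trend on gene length.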

Additional observations from a re-analysis of the deposited data

Results flagged for a closer look

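The ccr4 minus not2 difference was tested for a change between glucose depletion and exponential phase by the interaction contrast of the same limma fit. It was called in 1931 genes at an adjusted p of 0.05.

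The greatest positive changes, in which the difference was more positive after depletion, were in PCL1 (5.55), a G1 cyclin of Pho85, and in the ribosome assembly genes EFG1 (4.95), RRP3 (4.77), RRP1 (4.59), NSA2 (4.43) and SSF1 (4.42). PCL1 had 6.96 and 6.87 in ccr4, against 6.77 and 5.81 in not2 and 3.48 and 3.54 in wild type after depletion, and its change rests on exponential phase, where the difference was -4.93. RRP3, a helicase, had 7.33 and 7.51 in ccr4, against 4.80 and 4.49 in not2 after depletion, and a difference of -1.99 in exponential phase. EFG1 depends on its probe set, since the 3 further sets gave depletion differences of -0.00086, 1.14 and 2.37, against 2.89 on the set used.

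The greatest negative changes were in SPG1 (-6.19), SIP18 (-5.94), YNR071C (-5.91), SHH4 (-5.23), RGI2 (-4.88) and URA10 (-4.55). SHH4, a homologue of a succinate dehydrogenase subunit, had 6.54 and 6.33 in ccr4, against 10.34 and 9.79 in not2 after depletion (-3.63 ± 0.32), and a difference of 1.60 in exponential phase. RGI2, a gene of respiratory growth, had 5.03 and 5.11 in ccr4, against 9.81 and 9.23 in not2 and 6.07 and 6.21 in wild type after depletion. URA10, a minor orotate phosphoribosyltransferase, had 3.84 and 3.72 in ccr4, against 8.57 and 7.79 in not2 and 6.26 and 6.39 in wild type.

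By list, the change was called in 95 of 107 ribosome biogenesis genes, 48 of 82 cytosolic ribosomal proteins, 25 of 35 translation factors, 21 of 37 RNA polymerase I and III genes and 2 of 4 histone genes. These called changes were higher, but for 1 translation factor. Called lower were 18 of 30 gluconeogenesis and glyoxylate genes, 10 of 15 glycogen genes, 5 of 7 a-specific genes and 4 of 5 alpha-specific genes. Of 16 daughter-cell genes 9 were called, 7 lower and 2 higher. Over all genes tested the change was called in 34.1%, 23.1% higher and 11.1% lower. Lists with smaller shares called, such as drug efflux (47.8%) and proteasome genes (45.9%), are left out here, and the histone share rests on 4 genes.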

How the results depend on the processing

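Over the alternatives that kept all arrays, the number of genes called in ccr4 against not2 after depletion ran from 1689, with the spread of the compared groups alone (917 higher and 772 lower), to 2567. Leaving out 1 array gave 1682 to 2644 called genes, 928 to 1493 higher and 754 to 1151 lower. Of the 243 called named genes, 49 lost their call under at least 1 setting, 38 of them on leaving out 1 array. ZRT1 alone changed sign, to -0.064 (adjusted p = 0.90) with the mean over its probe sets. In exponential phase 1125 to 1832 genes were called with 1 array left out (372 to 539 higher and 753 to 1293 lower), and median centring gave 1116 higher and 784 lower. For the difference between conditions these were 1232 to 2187 (837 to 1484 higher and 395 to 703 lower), and 745 higher and 1024 lower under median centring. For caf1 against not4 the counts were 654 to 1048 without 1 not4 array (409 to 677 higher and 245 to 371 lower), 32 with the spread of the compared groups (17 and 15), 242 with that of the same growth condition (157 and 85), and 234 higher under quantile normalization. In all of these the cause was not tested, beyond the fewer arrays or groups that some of them hold. With the replicate number as a block, 2452 genes were called after depletion, 1931 in exponential phase and 1820 for the difference between conditions. The replicate differences of ccr4 and not2 correlated at -0.24 after depletion and 0.08 in exponential phase, so the numbers are not shown to pair the arrays. A crossed pairing, chosen after seeing the data, gave 2567. Depth cannot be read from these values, and the spread between the 2 not2 depletion arrays limits what 2 arrays per strain can show.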

Other observations

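Some families outside the lists, chosen after their values were seen and given without a test, also differed. Of 20 aminoacyl-tRNA synthetase genes, which charge tRNAs with amino acids, 18 were called higher in ccr4 than in not2 after depletion and 0 lower, with a median of 1.85. In exponential phase 7 were higher, with a median of 0.33. Of 61 SNR genes, which encode small nuclear and nucleolar RNAs, 31 were lower in ccr4 and 3 higher after depletion, with a median of -0.88 and a range from -4.72 for SNR6 to 2.16. In exponential phase 20 were higher and 5 lower, with a median of 0.58.

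The remaining gene lists had these counts after depletion. Fatty acid synthesis had 6 of 13 genes higher and 3 lower, histones 2 of 4 higher and 0 lower, and sulfate and methionine genes 9 of 35 higher and 7 lower. Without ccr4 array 2 the fatty acid list had 3 higher, the histones 1 higher and the sulfate and methionine list 2 lower. Histones higher also numbered 1 without ccr4 array 1 or not2 array 2, 1 histone gene was lower without not2 array 1, and the sulfate and methionine list had 4 lower without not2 array 2. Among sulfur genes CYS3, which makes cysteine, was higher by 2.87 ± 0.48 and SAM4 by 2.84 ± 0.33. Proteasome genes were higher in 7 of 37 and lower in 3, hypoxic genes in 5 and 4 of 22, zinc genes in 3 and 3 of 13, and thiamine and vitamin B6 genes in 2 and 3 of 15. Higher proteasome genes numbered 13 without not2 array 1, 3 without ccr4 array 1 and 2 without ccr4 array 2 or not2 array 2, and lower ones 1 without either ccr4 array. Without not2 array 1 the hypoxic list had 2 higher and 8 lower, and without ccr4 array 2 it had 3 higher and 1 lower. It had 2 lower without ccr4 array 1 or not2 array 2. Zinc genes lower numbered 1 without ccr4 array 1, ccr4 array 2 or not2 array 2. Phosphate genes were higher in 3 of 23 and lower in 5, G2 and M phase genes in 5 and 5 of 24, and DNA damage genes in 4 and 7 of 22. Phosphate genes higher numbered 1 without ccr4 array 2 or not2 array 1. G2 and M phase genes higher numbered 8 without not2 array 1, and lower ones 3 without ccr4 array 1 and 2 without ccr4 array 2. Meiosis genes were lower in 5 of 28, aryl-alcohol dehydrogenases in 2 of 5 and subtelomeric genes in 3 of 7, with 0 higher in each, and flocculation genes were higher in 3 of 11 and lower in 0. Without not2 array 1, 5 flocculation genes were lower, and 2 meiosis genes and 1 subtelomeric gene were higher. Meiosis genes lower numbered 3 without ccr4 array 2 or not2 array 2. Of 1340 genes on any list 685 were called (51.1%), and of 4316 on none 1833 (42.5%).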
